A study of Mus musculus with 6 samples.

Results

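Beta-catenin and GSK3 pathway genes were followed by 6 transcripts chosen by name, Ctnnb1, Gsk3a, Gsk3b, Apc, Axin2 and Lef1, and all 6 were found among the 12331 gene rows of the RPKM table. RPKM is a gene's read number corrected for the length of its model and for the alignments in the library, which puts different genes on 1 scale. Whether reads covered each model evenly was not checked, so levels of genes of unlike length compare only roughly. RNA for all 6 libraries was from the mouse embryonic stem cell line E14tg2a, an established line kept in serum and LIF, the cytokine that holds the cells undifferentiated. No genotype or treatment differed between libraries. Each library began with 10 pg of purified total RNA which was primed with oligo(dT) and amplified for 20 PCR cycles, although the sample descriptions also speak of a single cell lysate. For 3 libraries (sonication) ultrasound broke the cDNA before a ligation-based kit added adaptors. For the other 3 (tagmentation) the Tn5 transposase of the Nextera kit fragmented and tagged it in 1 step. The question put by the design is how these library methods compare on the same small input. The replicates are labelled technical, so a p-value here reflects technical spread among libraries and says nothing of separate cultures.

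Beta-catenin, the product of Ctnnb1, links cadherins to the cytoskeleton at the cell membrane and, when it is stable, enters the nucleus and binds factors of the Tcf/Lef family. In the absence of a Wnt signal a destruction complex built on Axin and Apc holds beta-catenin for phosphorylation by casein kinase and by the GSK3 kinases, which marks it for the proteasome. Mouse embryonic stem cells are known for their response to GSK3 inhibition, which stabilises beta-catenin, relieves repression by Tcf7l1 and favours self-renewal.

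The libraries held 18852822 to 34681566 alignments, and 44.0% to 55.2% of the gene rows reached 1 RPKM in a library. All 10 stem cell markers examined were at 1 RPKM or more in at least 3 libraries, and their summed level was 1419 to 2859 RPKM. Nanog, a core stem cell factor, had a listed value of 0 in sonication library 3 and in tagmentation library 3. Klf4, also among the 10, had 0.336 and 0.141 RPKM in sonication and tagmentation library 1 and 12.3 to 40.4 RPKM elsewhere. Of the 5 fibroblast markers in the table, the collagen genes Col1a1, Col1a2 and Col3a1 stayed below 1 RPKM in every library, and the 5 summed to 43.9 to 90.0 RPKM, most of it Acta2. The fibroblast list also holds Thy1, at 12.1 and 9.55 RPKM at number 1 and at most 2.15 RPKM elsewhere. The 2 extraembryonic endoderm markers in the table summed to 5.54 and 9.29 RPKM at number 1, all of it Dab2, and to at most 0.114 RPKM elsewhere. The 3 neuroectoderm markers summed to 14.3 to 51.1 RPKM, most of it Tubb3. Libraries of the 2 methods that carry the same replicate number were far more alike than other pairs, with correlations of log2(RPKM + 1) across genes of 0.958 to 0.977 against 0.482 to 0.705 between methods at different numbers. Values are therefore given below by number, sonication first.

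Ctnnb1 stood apart from the other 5 transcripts in every library. After sonication its level was 221, 152 and 67.3 RPKM at numbers 1 to 3, and after tagmentation it was 287, 234 and 144 RPKM. Its rank among the 12331 rows was between 176 and 771. Axin2, a scaffold of the destruction complex that is itself switched on by beta-catenin, had the next median level, 1.24 RPKM over the 6 libraries against 186 RPKM for Ctnnb1, and the ranges of the 2 did not overlap. Below it followed Apc (median 0.526 RPKM), Gsk3a (0.244 RPKM), Gsk3b (0.0181 RPKM) and Lef1, with a median of 0. Each of these neighbours overlapped in range. Axin2 was above Apc in 4 of 6 libraries, Apc above Gsk3a in 4, Gsk3a above Gsk3b in 5 and Gsk3b above Lef1 in 4, so that the order below Ctnnb1 was not the same in every library. Each library began with 10 pg of RNA, and the part of molecules missed at this input in the low values and in those listed at 0 was not tested. The values do not resolve cells either, so fewer cells with a transcript and less of it per cell cannot be told apart.

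**Figure D1:**
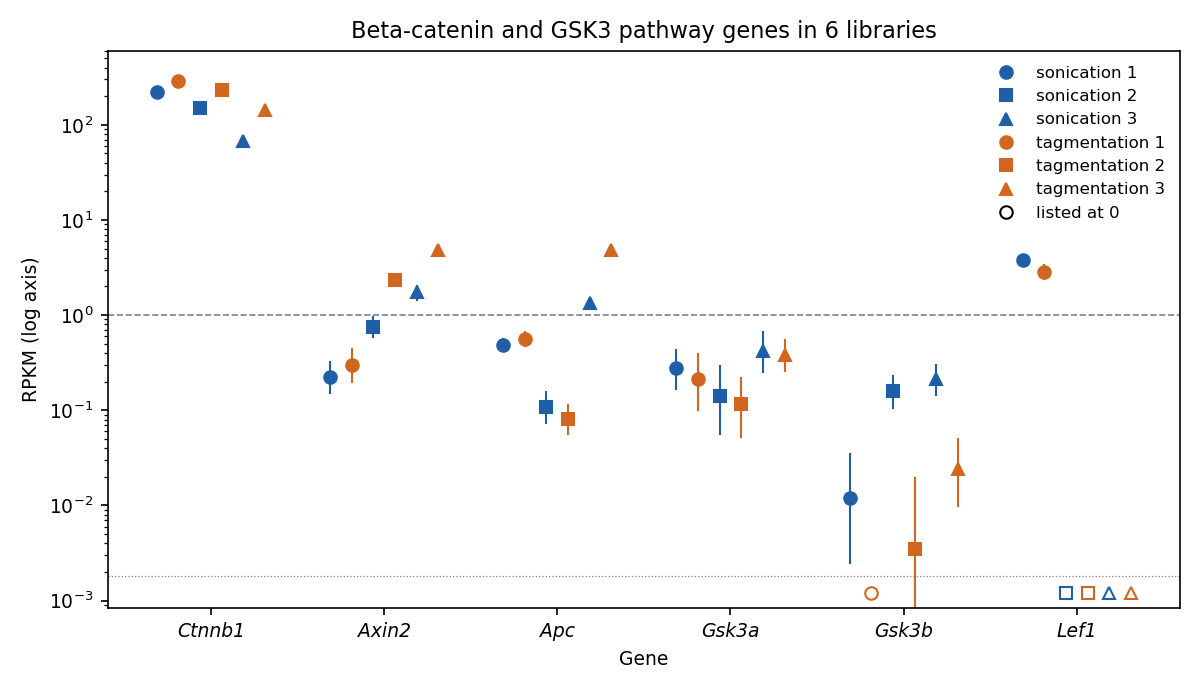
RPKM (log axis) of the 6 genes in each library, coloured by method, with 1 marker shape for each replicate number. Vertical lines are 95% counting intervals where reads could be recovered, cut off at the lower edge of the plot, and open markers under the dotted line are values listed at 0. The dashed line is 1 RPKM. Ctnnb1 lies between 67.3 and 287 RPKM, and no other value exceeds 4.87 RPKM.

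The sequence before the transcription start is shown for Ctnnb1, the most abundant of the genes, for the kinase pair Gsk3a and Gsk3b, whose transcripts were near the limit of detection, and for Axin2, the classical target of the pathway. The 250 bases before the RefSeq start were taken by gene symbol from build GRCm38.p6, which is not the mm9 build of the deposited values, and for Ctnnb1 the first of 2 RefSeq starts is shown. They lie at chr9:120933150-120933399 on the plus strand for Ctnnb1, chr7:25237852-25238101 on the minus strand for Gsk3a, chr16:38088751-38089000 on the plus strand for Gsk3b and chr11:108920099-108920348 on the plus strand for Axin2. Capitals mark CCAAT, the box bound by the factor NF-Y, and CTTTGA, the core of Tcf/Lef sites, on either strand (ATTGG and TCAAAG on the other).
Ctnnb1: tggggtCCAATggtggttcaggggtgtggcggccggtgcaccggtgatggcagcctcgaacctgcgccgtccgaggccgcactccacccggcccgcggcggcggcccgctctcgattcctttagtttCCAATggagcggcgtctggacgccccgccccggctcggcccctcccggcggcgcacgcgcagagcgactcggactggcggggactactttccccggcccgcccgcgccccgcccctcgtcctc
Gsk3a: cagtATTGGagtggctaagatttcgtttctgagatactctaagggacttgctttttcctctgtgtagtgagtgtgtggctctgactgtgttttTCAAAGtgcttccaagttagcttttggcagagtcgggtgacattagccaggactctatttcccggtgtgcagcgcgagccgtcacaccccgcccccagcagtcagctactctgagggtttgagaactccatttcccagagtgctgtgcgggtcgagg
Gsk3b: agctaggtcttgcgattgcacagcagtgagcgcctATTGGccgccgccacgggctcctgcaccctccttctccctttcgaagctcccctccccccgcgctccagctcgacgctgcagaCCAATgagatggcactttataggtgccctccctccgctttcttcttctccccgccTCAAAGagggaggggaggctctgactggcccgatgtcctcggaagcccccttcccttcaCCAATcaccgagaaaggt
Axin2: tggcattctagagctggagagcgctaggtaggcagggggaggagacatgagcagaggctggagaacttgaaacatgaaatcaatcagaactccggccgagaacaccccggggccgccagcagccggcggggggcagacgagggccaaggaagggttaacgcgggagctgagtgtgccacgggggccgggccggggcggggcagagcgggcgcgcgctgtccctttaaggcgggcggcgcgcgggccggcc

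Gsk3b held 3 CCAAT matches, Ctnnb1 2 and Gsk3a 1, and 33.8% of the 32851 RefSeq windows of this length held at least 1. CTTTGA matched once each in Gsk3a and Gsk3b, against 13.8% of all windows, and these letters were not in the windows of Ctnnb1 and Axin2. The window of the second Ctnnb1 start held 0 matches to either motif and 43 CpG dinucleotides. The printed Ctnnb1 window held 35 CpG dinucleotides, more than 97.0% of all windows, Axin2 24, Gsk3b 15 and Gsk3a 9. No 2 matches overlapped, and a match describes the sequence only.

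Read counts behind the low values could be recovered for 5 of the 6 genes. A gene's RPKM, its library's alignments and 1 gene length must give whole reads, and a length between 200 and 20000 bases that did so in all 6 libraries was found for Gsk3a (2259 bases), Gsk3b (8298), Apc (12449), Axin2 (4258) and Lef1 (2457), each within 0.002 reads of whole numbers. All other lengths that fitted were multiples of the one given. For Ctnnb1, whose reads are too many for the digits of the table, 19 lengths fitted that were not multiples of one another and none was taken. Counting intervals below are exact Poisson intervals at 95% for levels and exact Clopper-Pearson intervals for ratios. Since the cDNA was amplified and carried no molecular identifiers, many reads can stem from 1 molecule, and these intervals cover counting error only.

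Differences between the methods were tested with limma on log2(RPKM + 1) over the 6327 genes at 1 RPKM or more in at least 3 libraries. Only Ctnnb1 and Axin2 passed this filter, since Apc and Lef1 reached 1 RPKM in 2 libraries each and Gsk3a and Gsk3b in none. At a Benjamini-Hochberg adjusted p under 0.05, limma called 0 of all genes tested (0%), and 18 (0.284%) had an unadjusted p under 0.05. With the replicate number as a block limma called 208 (3.29%), 100 higher (1.58%) and 108 lower (1.71%) after tagmentation. Neither Ctnnb1 nor Axin2 was among the calls of either fit.

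Ctnnb1 was higher after tagmentation at each of the 3 numbers, by 1.30, 1.54 and 2.14 times, while the 2 groups of libraries overlapped. The mean level rested at 222 ± 72.5 RPKM (SD, n = 3) after tagmentation and at 147 ± 76.9 RPKM (SD, n = 3) after sonication. Here and below the log2 difference is tagmentation minus sonication in log2(RPKM + 1). It was 0.69 for Ctnnb1 (SE 0.52, limma adjusted p 1.00, and with the block SE 0.30, adjusted p 0.202). Of all genes tested, 19.6% were likewise higher after tagmentation at all 3 numbers. The difference lay between 0.22 without sonication replicate 3 and 1.07 without sonication replicate 1. Such a fit leaves 1 number unpaired, here and below, so its difference between methods mixes in that between numbers. With the block Ctnnb1 was called once quantile normalization was applied (0.57, adjusted p 0.0287), in a fit that called 476 of all 6327 genes. It was also called when number 1 was left out (0.85, adjusted p 0.0172), in a fit that called 1051 of 6327.

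Axin2 had 0.225, 0.758 and 1.73 RPKM after sonication (29, 71 and 139 reads) and 0.302, 2.33 and 4.87 RPKM after tagmentation (27, 344 and 719 reads). The methods were near each other at number 1, where the ratio of tagmentation to sonication was 1.34 (0.765 to 2.35). At number 2 the ratio was 3.08 (2.38 to 4.03) and at number 3 it was 2.81 (2.34 to 3.40), so that the counting intervals lay above 1 in these pairs of libraries. Over all 6 libraries the log2 difference was 0.70 (SE 0.79, limma adjusted p 1.00, and with the block SE 0.27, adjusted p 0.133). It was 0.21 without tagmentation replicate 3, 0.43 without sonication replicate 1 and 1.29 without tagmentation replicate 1. With pseudocounts of 0.1 and 5 RPKM it was 1.08 and 0.31. With the block and without number 1 Axin2 was called (1.01, adjusted p 0.0260), in a fit that called 1051 of all 6327 genes.

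**Figure D2:**
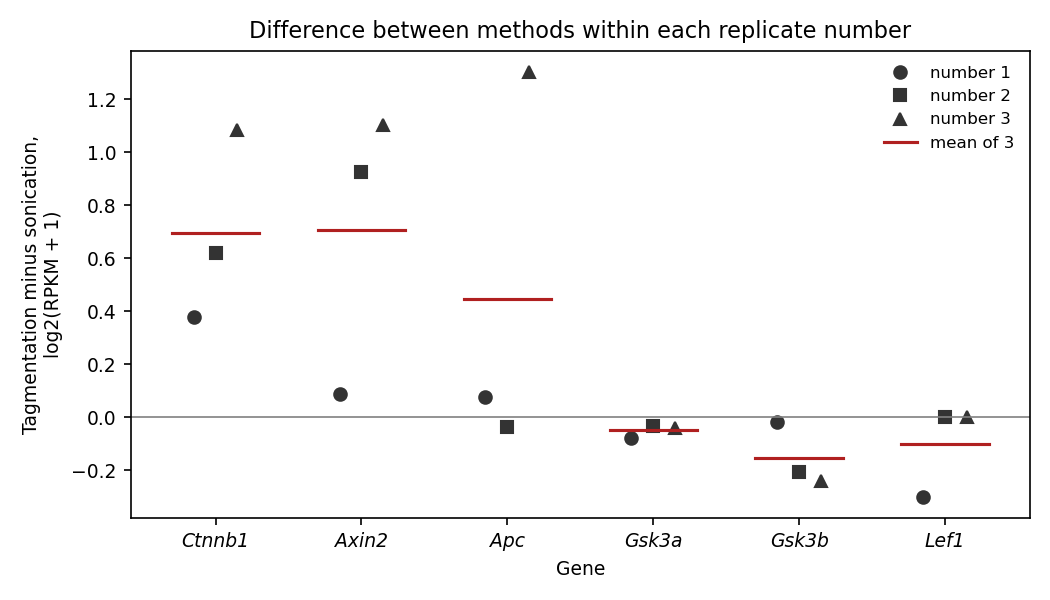
Tagmentation minus sonication in log2(RPKM + 1) for each gene at replicate numbers 1 to 3 (marker shapes), with the mean of the 3 as a red line. The means are 0.69 for Ctnnb1 and 0.70 for Axin2, and the value of Apc rests on number 3.

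Apc encodes the large tumour suppressor protein that holds beta-catenin in the destruction complex. It had 0.485, 0.110 and 1.35 RPKM after sonication (183, 30 and 316 reads) and 0.566, 0.0812 and 4.79 RPKM after tagmentation (148, 35 and 2067 reads). Both libraries of number 3 were the highest of their method and both of number 2 the lowest, and within tagmentation the gap was 58.9-fold. The methods differed beyond counting error at number 3, with a ratio of 3.56 (3.16 to 4.02), and not at number 1 (1.17, 0.933 to 1.46) or number 2 (0.742, 0.442 to 1.25). The log2 difference was 0.08, -0.04 and 1.30 at numbers 1 to 3, with a mean of 0.45. It was -0.27 without tagmentation replicate 3, a fit that kept sonication replicate 3 without its pair. RefSeq also lists a pseudogene, Apc-ps1, and how reads with several matches were counted is not given in the sources used here, so the level of Apc is uncertain to that extent.

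Gsk3a and Gsk3b encode the paralogous serine/threonine kinases that phosphorylate beta-catenin and, in glucose metabolism, glycogen synthase. Gsk3a had 0.278, 0.141 and 0.423 RPKM after sonication (19, 7 and 18 reads) and 0.211, 0.115 and 0.383 RPKM after tagmentation (10, 9 and 30 reads). Number 3 was highest and number 2 lowest in both methods. The ratios of tagmentation to sonication were 0.759 (0.315 to 1.72), 0.817 (0.271 to 2.58) and 0.906 (0.489 to 1.73), so a difference between methods was not detectable at this depth. The mean log2 difference was -0.05, and it was 0.23 with quantile normalization. It was 0.03 without sonication replicate 3 and 0.02 without tagmentation replicate 2, fits that unpair a number. Within each of the 3 numbers the difference was negative.

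Gsk3b had lower values after tagmentation at all 3 numbers, as Gsk3a did. The same pattern was found in 14.2% of the genes tested, a set above the filter that holds neither kinase. It had 0.0119, 0.159 and 0.211 RPKM after sonication (3, 29 and 33 reads), and after tagmentation it was listed at 0 in library 1 and had 0.00348 and 0.0243 RPKM in libraries 2 and 3 (1 and 7 reads). At number 3 sonication gave 8.67 times the tagmentation level (3.77 to 23.2), and at number 2 it gave 45.6 times (7.56 to 1863), where the tagmentation value rests on 1 read. At number 1 both libraries were at or under 3 reads and no fold is given. The mean log2 difference was -0.16, which shrinks and grows with the pseudocount at such low levels (-0.94 with 0.1 RPKM and -0.03 with 5 RPKM). Whether the change in Gsk3b differs from that in Gsk3a was not tested across libraries.

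Lef1, one of the Tcf/Lef factors that carry beta-catenin to DNA, had values above 0 at number 1 alone. It had 3.76 RPKM after sonication (280 reads) and 2.87 RPKM after tagmentation (148 reads), and it was listed at 0 in the 4 libraries of numbers 2 and 3. A floor of 3 reads was used for a count of 0, which is 0.0352 to 0.0648 RPKM in those libraries. The upper ends of the two-sided Poisson intervals are somewhat higher, at 0.0433 to 0.0796 RPKM. Number 1 was therefore at least 67.8-fold and 58.1-fold higher than numbers 2 and 3 within sonication, and at least 81.3-fold and 81.4-fold higher within tagmentation, with the floor taken per library. Dab2 and Thy1 were likewise highest at number 1, as was Acta2 (78.0 and 59.7 RPKM). The other markers of their lists, Col1a1, Col1a2, Col3a1 and Pdgfra, were at 0 at number 1 in both methods and below 1 RPKM elsewhere. The part of other cell types in the level of Lef1 was not tested. At number 1 the ratio of tagmentation to sonication was 0.762 (0.620 to 0.934). The log2 difference was -0.30 at number 1 and 0 at numbers 2 and 3, with a mean of -0.10. Without sonication replicate 1 it was 0.65, a fit in which tagmentation replicate 1 had no pair.

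Exact two-sided permutation tests of each gene, 3 libraries against 3, gave p = 0.2 for Gsk3b, 0.3 for Ctnnb1, 0.4 for Axin2, 0.7 for Apc and Gsk3a and 1 for Lef1, where 0.1 is the smallest possible. Adjusted by Benjamini-Hochberg over these 6 tests, they were 0.8 or more. This unpaired test cannot pass a threshold of 0.05 with 3 libraries against 3.

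The replicate number set apart the levels of both tested members. With the method as a term, limma's F test over the 3 numbers called Ctnnb1 (adjusted p 0.00140) and Axin2 (adjusted p 1.07e-05), and it called 5577 of all 6327 genes (88.1%), so that such a call is the rule in these data. The 2 genes went opposite ways. Ctnnb1 at number 3 was lower than at number 1 by a log2 difference of -1.35 (SE 0.37) and than at number 2 by -0.93 (SE 0.37), while numbers 2 and 1 were nearer each other (-0.42, SE 0.37). Axin2 at number 3 was higher than at number 1 by 1.66 (SE 0.33), and number 2 was higher than number 1 by 0.94 (SE 0.33). The order 1, 2, 3 from high to low, which Ctnnb1 had in both methods, was found in 18.1% of the genes tested, and the reverse, that of Axin2, in 10.3%. Some order shared by both methods was found in 72.6%. The call for Ctnnb1 was lost without sonication replicate 2 (adjusted p 0.175), sonication replicate 3 (0.188) or tagmentation replicate 2 (0.167), and without number 2 altogether (0.0714). The call for Axin2 held in each of these fits, with adjusted p of at most 0.0297 over the 13 alternatives in which it was tested. Its difference between numbers 3 and 1 was 3.06 with a pseudocount of 0.1 RPKM and 0.63 with 5 RPKM. That of Ctnnb1 was -0.86 with median-ratio scaling. Each number has 1 library per method, so the error of this test is how the difference between methods varies over the numbers, moderated by limma towards that of other genes.

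Transcripts with the profile most like Ctnnb1 over the 6 libraries, by Pearson correlation of log2(RPKM + 1) with 6326 other genes, were Arpp19 (r = 0.996), which encodes a regulator of the phosphatase PP2A, Ctbp2 (0.995), a transcriptional corepressor, and Psma1 (0.994), a subunit of the proteasome core. Ctbp2 had 111, 91.0 and 46.2 RPKM after sonication and 146, 130 and 86.0 RPKM after tagmentation. Most like Axin2 were Twf1 (0.995), an actin-binding protein, Rbmxrt (0.992), a retrogene copy of an RNA-binding protein gene that may share reads with its parent, and Stau1 (0.990), a double-stranded RNA-binding protein. Twf1 had 10.2, 15.4 and 21.2 RPKM after sonication and 11.0, 23.4 and 43.3 RPKM after tagmentation. The 6 points share their cDNA number in pairs, and with so many genes compared such values describe these libraries only.

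The pathway around the 6 genes was taken as 119 further genes by role, of which 88 were in the table (2 of them under older symbols). The filter was passed by 45 of the 88, and by 6327 of all 12331 rows. Limma called 0 of the 45 between methods (0% of all genes), with a median log2 difference of 0.070 against 0.028 over all genes tested, and 25 of 45 lay above 0 against 3336 of 6327. With the replicate block 2 of 45 were called, Frat1 and Tnks2, both lower after tagmentation (1.71% of all genes were). Between numbers 40 of 45 differed (88.9%, against 88.1% of all genes).

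Frat1 encodes a GSK3-binding protein that takes the kinase away from Axin. It had 2.01, 3.74 and 9.62 RPKM after sonication (159, 215 and 474 reads) and 0.219, 0.133 and 0.243 RPKM after tagmentation (12, 12 and 22 reads). The 2 groups of libraries did not overlap, which held for 2.40% of all genes tested, and sonication exceeded tagmentation by 9.19 (5.12 to 18.2), 28.2 (15.8 to 55.4) and 39.6 times (25.9 to 63.9) at numbers 1 to 3. Frat1 passed the filter through its sonication libraries alone, since every tagmentation value was under 1 RPKM. For a gene that passed in this way the groups cannot overlap, so the lack of overlap adds no support. The tests that follow are likewise of a gene kept through its high group. The log2 difference was -2.15 (SE 0.78, limma adjusted p 1.00, and with the block SE 0.28, adjusted p 4.57e-10). With the block the call was lost under no filter (-2.15, adjusted p 0.698), median-ratio scaling (-2.13, 0.120) and quantile normalization (-2.04, 0.0561), with differences of nearly the same size. The difference was -3.87 with a pseudocount of 0.1 RPKM and -0.89 with 5 RPKM, both called with the block.

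Tnks2, a tankyrase that marks Axin proteins for degradation, did not move one way at all numbers. It had 33.1, 6.56 and 7.91 RPKM after sonication and 55.8, 0.981 and 1.62 RPKM after tagmentation, higher at number 1 and lower at numbers 2 and 3. Its log2 difference was -0.99 (SE 1.497, limma adjusted p 1.00, and with the block SE 0.30, adjusted p 0.0403). Without the block it was -0.11 without tagmentation replicate 2, -0.30 without sonication replicate 1, -0.31 without tagmentation replicate 3 and -2.53 without tagmentation replicate 1. The call was lost without number 2 (adjusted p 0.999) or number 3 (0.925), and with both other pseudocounts, median-ratio scaling, quantile normalization and no filter (0.326 to 0.698). The call held without number 1 (-1.85, adjusted p 0.00645), in a fit that called 1051 of all 6327 genes. It also held with the filter at a mean of 10 RPKM (adjusted p 0.0268), where 168 of 4023 genes were called.

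**Figure D3:**
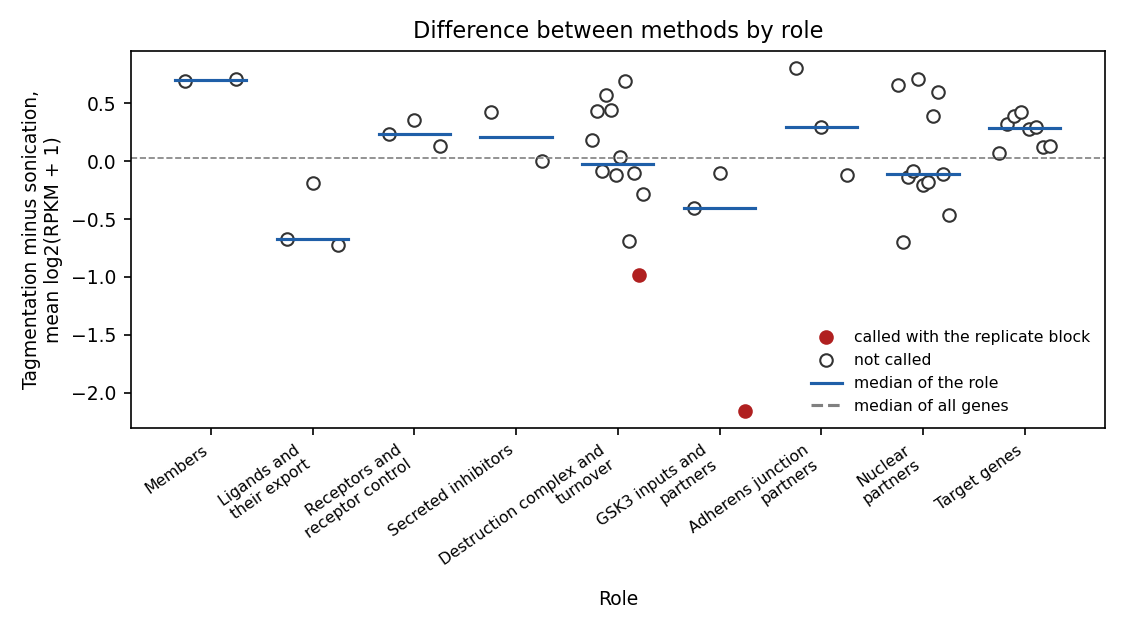
Tagmentation minus sonication in mean log2(RPKM + 1) for the 2 tested members and the 45 tested pathway genes, by role, with the median of each role as a blue line and that of all genes as a dashed line. Frat1 (-2.15) and Tnks2 (-0.99), filled, are the 2 genes called by limma with the replicate block.

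At the head of the pathway few transcripts passed the filter, which 6327 of all 12331 rows did. Of 25 ligands and export factors 10 were in the table and 3 passed the filter, none called between methods. Wls, the carrier that brings Wnt proteins to the cell surface, had the highest mean of this role, with 23.0, 2.20 and 2.96 RPKM after sonication and 34.4, 0.257 and 0.523 RPKM after tagmentation. Of 20 receptor genes and their regulators 16 were in the table and 3 passed, led by Dvl2, a Dishevelled adaptor, with 3.76, 13.6 and 23.0 RPKM and 3.42, 14.6 and 30.7 RPKM. Of 13 secreted inhibitors 7 were in the table and 2 passed. They were led by Sfrp1, a decoy for Wnt proteins, with 2.71, 3.62 and 8.63 RPKM and 2.82, 4.53 and 17.7 RPKM. Wls was highest at number 1 and Dvl2 and Sfrp1 at number 3 in both methods.

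Most other genes of the destruction complex passed the filter, against 6327 of all 12331 rows. Of the 15 listed 13 were in the table and 12 passed the filter. Of these 12, 6 had a log2 difference between methods above 0, as did 3336 of 6327 over all genes. With the block 1 (Tnks2) was called, against 208 of 6327. Ppp2r1a, the scaffold subunit of the phosphatase PP2A, had the highest mean, with 72.1, 94.9 and 141 RPKM after sonication and 48.0, 96.8 and 162 RPKM after tagmentation. Axin1, the constitutive scaffold and paralogue of Axin2, had 16.1, 10.5 and 17.3 RPKM and 12.2, 14.5 and 24.7 RPKM, and did not pass the test between numbers (adjusted p 0.139). Among the 8 inputs and partners of GSK3, 3 passed the filter. Akt1, the kinase that inhibits GSK3 by phosphorylation, led them with 5.01, 1.84 and 36.2 RPKM and 2.96, 1.00 and 33.2 RPKM, with number 3 far above the others in both methods. Axin1 and the genes named in the next paragraphs outside the leading gene of each role were chosen after their values were seen.

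Adherens junction partners of beta-catenin passed the filter in 3 of 4 cases and none was called between methods. Ctnna1, the alpha-catenin that joins beta-catenin to actin, had the highest mean, with 144, 19.8 and 39.3 RPKM after sonication and 173, 18.3 and 65.4 RPKM after tagmentation. Cdh1, E-cadherin, had 19.0, 18.0 and 44.2 RPKM and 27.7, 28.6 and 107 RPKM. Number 1 was highest for Ctnna1, as for Ctnnb1, and number 3 for Cdh1.

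Nuclear partners numbered 22, of which 19 were in the table and 11 were tested. None of the 11 was called between methods and 10 differed between numbers, where 88.1% of all genes did. Ruvbl2, an ATPase of chromatin remodelling complexes that binds beta-catenin, had the highest mean, with 138, 176 and 264 RPKM after sonication and 72.4, 143 and 234 RPKM after tagmentation. Among the other Tcf/Lef factors Tcf7l1, the repressor of stem cell genes, was found in every library with 35.3, 109 and 157 RPKM and 25.1, 73.9 and 74.1 RPKM. Tcf7l2 did not pass the filter, with 0.351, 0.664 and 1.71 RPKM and 0.577, 0.272 and 0.535 RPKM. Tcf7, which acts as an activator with beta-catenin, had 3.70, 0.123 and 14.0 RPKM and 8.09, 0.169 and 27.9 RPKM. Lef1 and Tcf7 thus had their highest values at different numbers, and Tcf7l1 exceeded both in all 6 libraries.

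Of the 12 target genes 11 were in the table and 8 passed the filter, against 6327 of all 12331 rows. All 8 mean differences between methods lay above 0, as did 3336 of 6327 over all genes, and none was called. Their median was 0.29 against 0.028 over all genes. Most of the 8 were higher after tagmentation at only 2 of the 3 numbers. Klf2, a naive stem cell factor, had the highest mean, with 66.6, 50.4 and 45.4 RPKM after sonication and 54.9, 66.4 and 53.7 RPKM after tagmentation. The targets did not share one order of numbers. Sp5, a direct Wnt target, was listed at 0 at number 1 in both methods and had 1.54 and 2.22 RPKM at number 2 and 17.0 and 31.1 RPKM at number 3, the number where Axin2 was highest. T (Brachyury), a Wnt target and a marker of primitive streak, was highest at number 2, with 61.3 and 83.2 RPKM, against 0.145 and 0.209 RPKM at number 1 and 7.08 and 12.6 RPKM at number 3. The 3 streak and mesoderm markers in the table, T among them, summed to 64.1 and 88.5 RPKM at number 2. Of the other two, Eomes had 2.78 and 5.29 RPKM there and Mixl1 was at 0. Their part in the level of Axin2 or Lef1 was not tested.

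**Figure D4:**
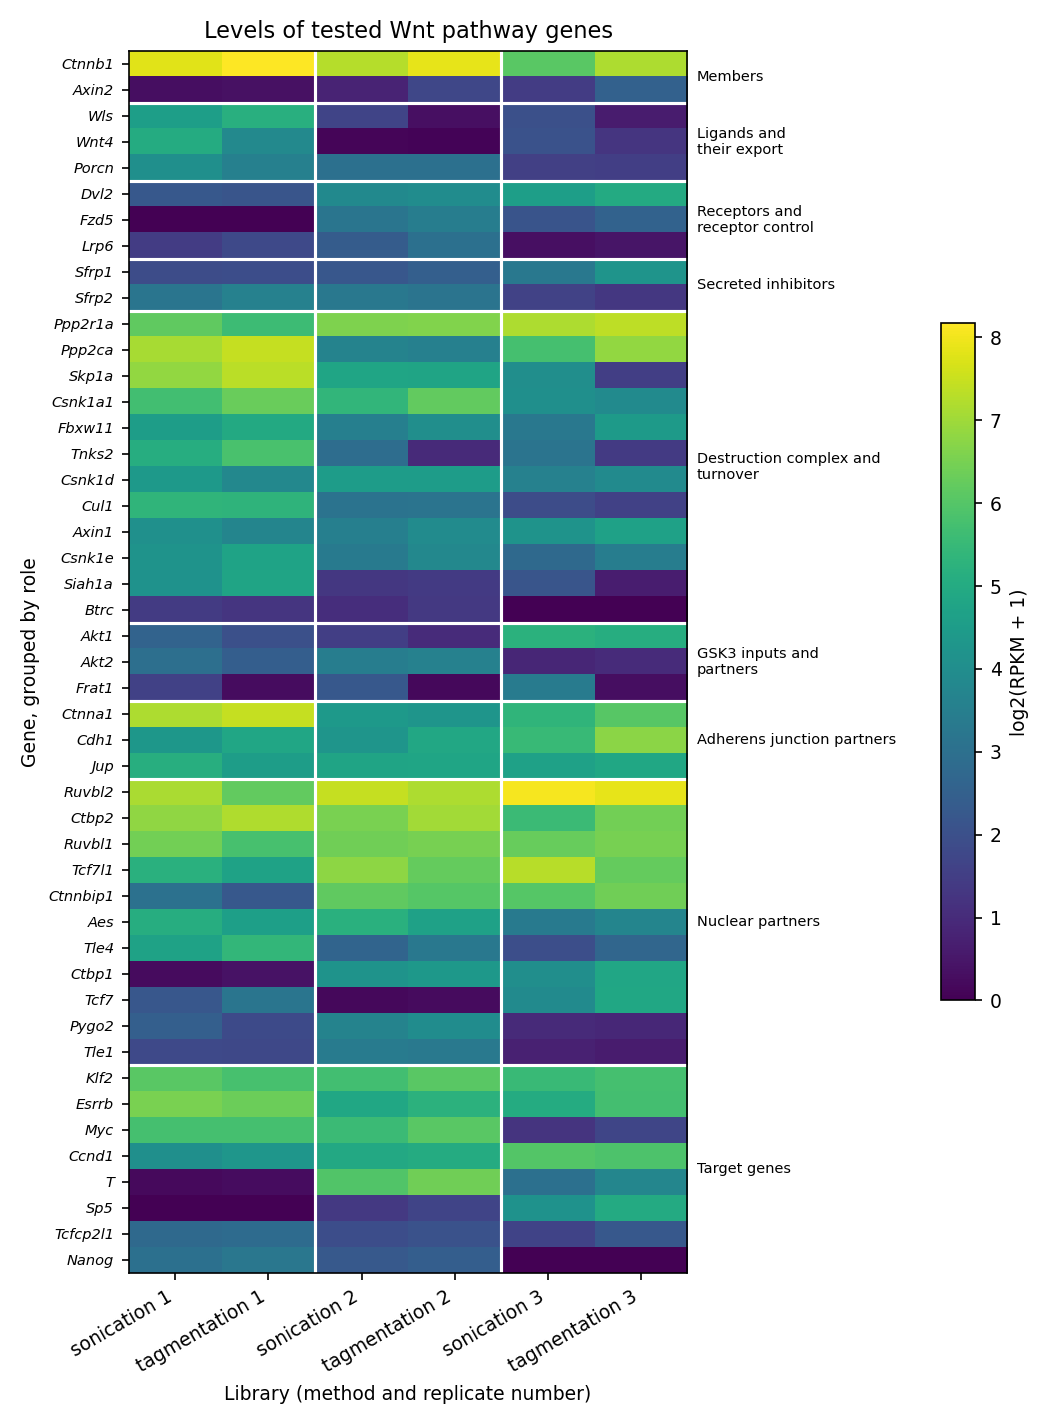
Level, log2(RPKM + 1), of the 2 tested members and 45 tested pathway genes (rows, by role) in the 6 libraries (columns, the 2 methods side by side at each number). A reader can compare the 2 columns of a number with those of the other numbers, as for T, at 61.3 and 83.2 RPKM at number 2 and at 0.145 and 0.209 RPKM at number 1.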

How the data were processed

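The authors deposited RPKM values. Per the file headers, each column also states how many alignments its library had. The submitters' processing notes name mm9, CASAVA 1.7.0 and Partek without their roles. Not given in the sources used here are aligner, annotation and strand setting. All 6 columns hold 1 library each.

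Libraries were grouped by their labels. Genes that reached 1 RPKM in 3 or more of the 6 libraries were tested as log2(RPKM + 1), a scale that understates changes of low genes, with limma 3.58.1 in R 4.3.3 (lmFit, eBayes with a trend, two-sided), Benjamini-Hochberg adjustment over all 6327 genes and a threshold of 0.05. The script was tested on simulated data. The method was the only term, with the replicate number as a block as an alternative. Numbers pair the libraries: after each group's mean was taken off, same-numbered libraries had correlations of 0.952, 0.969 and 0.934, and all others -0.175 or less. The blocked fit shrinks each gene's spread strongly to that of other genes (prior degrees of freedom 210). Other pseudocounts, filters, scalings and left-out libraries were tried.

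Read recovery, intervals and permutation tests used Python 3.11.15 with scipy 1.17.1. Lengths from 200 to 20000 bases were tried, with a tolerance of 0.0005 reads plus 1.2 times the rounding of the last digit. Members and lists were chosen with earlier results of these data known. Named pathway genes were those called with or without the block and the gene of highest mean in each role. Axin1, Cdh1, Tcf7, Tcf7l1, Tcf7l2, Sp5 and T fall outside this rule and were chosen after their values were seen. For likeness, the 3 genes of highest correlation were named.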

Additional observations from a re-analysis of the deposited data

How the results depend on the processing

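Without the replicate block the alternatives run, with 4023 to 12331 genes tested, called 0 genes between methods by limma. With the block the count of genes called was 208, and it was 8 with a pseudocount of 0.1, 168 with a pseudocount of 5, 168 when a mean of 10 RPKM was required (4023 genes tested), 476 with quantile normalization, and 0 with no filter or median-ratio scaling. It ran from 10 to 1051 when 1 number was left out, with 1051 without number 1, 10 without number 2 and 19 without number 3. The pathway genes called with the block were 2, then 1 with either pseudocount or the filter at 10 RPKM, 3 with quantile normalization, 0 with no filter or median-ratio scaling, and 1 to 7 with a number left out. The median of the pathway list ran from -0.11 (without tagmentation replicate 2) to 0.19 (without sonication replicate 1), and was -0.058 without sonication replicate 3. Each of these fits left 1 number unpaired. With no filter the median was -0.0099.

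Ctnnb1 was called between methods with the block and quantile normalization (0.57), and with the block and without number 1 (0.85). Axin2 was called in the latter fit only (1.01). Both kept their direction under all alternatives run. The difference of Ctnnb1 between numbers 3 and 1 was -1.35 without number 2 and -1.64 to -1.05 with 1 library left out, and -0.86 with median-ratio scaling, and the call ended in 4 of 14 alternatives. The genes called between numbers were 3411 of 4023 with the filter at 10 RPKM, where fewer genes were tested, and 3856 to 5867 with libraries left out. Where no cause is named it was not tested.

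Values of Gsk3a and Gsk3b rest on 0 to 33 reads a library, which sets their counting error. The 2 tagmentation libraries with 1 and 7 Gsk3b reads were the most deeply sequenced.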
